A study of Mus musculus with 12 samples.

Results

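The 6 arrays of reprogramming colonies in a mouse NOTCH1 leukemia series were compared here by how much Nanog RNA they carried, without regard to their GFP label. The sides were thus chosen by a measured value: an array belonged to the high side when the Nanog probe set (17462694) read 10.5 or more on the log2 scale, and to the low side below that level. Of the 12 arrays in the series, 3 fell on the high side, 3 on the low side, and the other 6 held leukemia cells or induced pluripotent stem cells (iPS cells). The high side held GFP+ replicate 2 and GFP- replicates 2 and 3, and the low side held GFP+ replicates 1 and 3 and GFP- replicate 1, so each side mixed both labels. By replicate number, both colonies numbered 1 fell on the low side and both numbered 2 on the high side, and those numbered 3 were split.

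All 4 groups of 3 arrays came from mice or cells of the genotype R26rtTA;Col1a12lox-4F2A, which carries a doxycycline-responsive transactivator and an inducible transgene for reprogramming that encodes Pou5f1, Sox2, Klf4 and Myc together. Leukemia cells were taken from spleen, and the 3 arrays all carry the same leukemia number in their titles. GFP+ colonies are called partially reprogrammed and GFP- colonies reprogrammed in the labels, which say that both grew from the leukemia cells but not what GFP marks. The iPS cells are called established and were grown in medium for mouse embryonic stem cells. The titles call the arrays biological replicates without naming separate animals or cultures, so a p-value here measures the spread between these arrays.

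Nanog is a homeodomain transcription factor of the naive pluripotent state, the state of the preimplantation epiblast and of mouse embryonic stem cells. It acts with Pou5f1 and Sox2 at the regulatory regions of many of the same genes. In reprogramming of somatic cells the endogenous Nanog gene is switched on late, and it is commonly used to tell fully reprogrammed colonies from intermediate ones.

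Nanog read 11.93 in GFP+ replicate 2, 11.35 in GFP- replicate 2 and 11.85 in GFP- replicate 3. It read 9.56 in GFP+ replicate 1, 7.97 in GFP+ replicate 3 and 5.07 in GFP- replicate 1. The array just inside the high side was therefore GFP- replicate 2 and the array just outside it GFP+ replicate 1. iPS cells read 12.31 ± 0.09 and leukemia 4.72 ± 0.35 (mean ± SD, n = 3 arrays), so GFP- replicate 1 lay near the leukemia level and GFP+ replicate 1 well above it. Because the level of Nanog chose the sides, nothing about the sides was tested. Each gene is instead described by its value on each array and by its gap, the lowest array of the higher side minus the highest array of the other side. A gene with a gap above 0 is called not overlapping, and a gene with a gap of at least 1 on the log2 scale is called separated by at least 2-fold. In the text below, the high side is given in the order GFP+ replicate 2, GFP- replicate 2, GFP- replicate 3, and the low side in the order GFP+ replicate 1, GFP+ replicate 3, GFP- replicate 1. Values are log2 levels throughout, and ± gives the SD of 3 arrays after a level and the limma standard error after a difference.

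**Figure D1:**
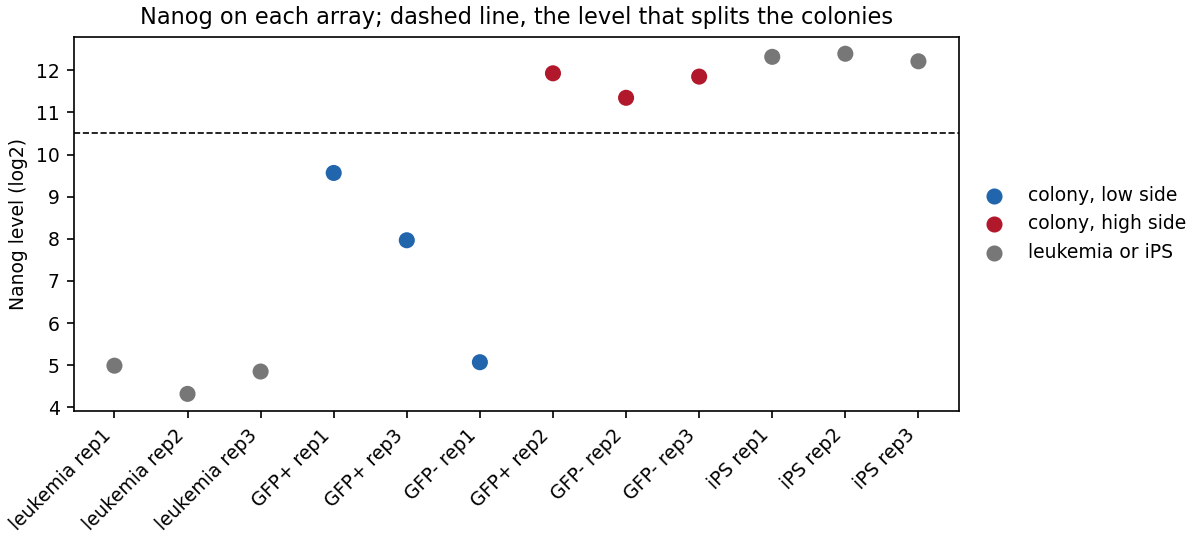
Nanog level (log2, vertical axis) on each of the 12 arrays; red points are colonies of the high side, blue points colonies of the low side and grey points leukemia or iPS arrays, and the dashed line is the level of 10.5. The high side lies between 11.35 and 11.93, and the low side spreads from 5.07 to 9.56.

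Over the 22179 genes other than Nanog, 137 (0.618%) were separated by at least 2-fold with the high side above, and 89 (0.401%) with the low side above. Without the 2-fold requirement 3829 genes (17.3%) did not overlap with the high side above and 3537 (15.9%) with the low side above. The median difference between the middle arrays of the sides was -0.01 over all genes. Leaving out an array can only widen a gap, and the counts moved most without GFP+ replicate 1, which had the highest Nanog of the low side (548 genes above on the high side and 281 on the low side), and without GFP+ replicate 2 (228 and 464). They were 239 on the high side without GFP- replicate 2 and 157 on the low side without GFP+ replicate 3. The arrays are bulk samples, so fewer cells of a type and less RNA per cell cannot be told apart.

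By the label, limma on the same 6 arrays called 0 of 22180 genes (0%) between GFP- and GFP+ colonies. At an unadjusted p under 0.05 there were 393 of 22180 genes, a smaller share than that threshold would pass with no difference between the labels. The smallest adjusted p was 0.998. This is a tested count, not to be set against the untested counts for the sides, and in simulated data the fit of the labels recovered 22% of genes changed by a log2 of 1. Without GFP- replicate 1, the GFP- colony on the low side, 1 gene passed, the keratin gene Krt17, with a log2 difference of -3.47 ± 0.16. Leaving out that array removed the GFP- colony with Krt17 near the GFP+ level, so the call is no test of the labels. The Krt17 levels were 11.80, 11.93 and 12.11 in GFP+ replicates 1, 2 and 3, and 8.54 and 8.41 in GFP- replicates 2 and 3, while the array left out read 11.60.

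The 3 arrays of the high side resembled iPS cells more closely than the 3 of the low side did. Their levels differed by more than 2-fold from the iPS mean at 1088, 990 and 1170 genes, against 2471, 3596 and 3564 genes on the low side. The leukemia arrays differed at 3173 to 3230 genes, so GFP+ replicate 3 and GFP- replicate 1 were farther from iPS cells by this count than the leukemia was. A position index, 0 at the leukemia mean and 1 at the iPS mean, was taken as the median over 1773 genes higher and 1389 genes lower in iPS cells by at least 2-fold. It was 0.869, 0.868 and 0.922 on the high side and 0.733, 0.526 and 0.638 on the low side. The sides were not uniform: across genes, which are not independent replicates, the low-side GFP+ replicate 1 correlated at 0.975 with the high-side GFP+ replicate 2 and at 0.976 with the low-side GFP- replicate 1, and at 0.955 with GFP+ replicate 3 of its own side.

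Naive pluripotency genes made up 14 of the 137 genes separated with the high side above. Of the 28 measured genes of the naive pluripotency list, which had been drawn up with earlier results of these data known, these 14 (50%) were separated by at least 2-fold, 0 were with the low side above, and 26 (92.9%) did not overlap. Over all genes 0.618% were separated and 17.3% did not overlap with the high side above. After cyclic loess, another scaling between arrays, 11 were separated, and the gaps of Dppa4, Utf1 and Mybl2 were 0.95, 0.99 and 0.92. The median difference between the middle arrays was 1.78, and it was 1.65 between the high and low arrays within the GFP+ label and 2.45 within the GFP- label. The mean of the list was 9.14, 8.90 and 9.39 on the high side, around the iPS arrays (9.29 to 9.32), and 7.91, 6.76 and 6.34 on the low side, above the leukemia arrays (5.99 to 6.15). In the comparison of iPS cells with leukemia, which used none of the colony arrays, limma called 5438 genes higher (24.5%) and 5087 lower (22.9%), and 27 of the 28 listed genes were among the higher.

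Zfp42, also called Rex1, is a zinc finger gene used as a marker of the naive state. It read 10.66, 10.31 and 10.90 on the high side and 8.69, 6.19 and 6.26 on the low side. All 3 high-side arrays lay above the iPS level of 9.30 ± 0.07, and GFP+ replicate 1 stood about midway between the others of its side and the high side. The closest arrays were 3.07-fold apart.

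Dppa3, known as Stella, protects the maternal genome from demethylation in the zygote and is heterogeneous in embryonic stem cells. It read 6.88, 7.43 and 7.19 on the high side against 5.14, 4.96 and 4.90 on the low side, with a gap of 1.74. Here the low-side arrays lay together, near leukemia at 4.64 ± 0.14, and the high-side arrays lay above iPS cells at 6.47 ± 0.11. Dppa3 and Nanog are adjacent among the measured genes in RefSeq order. Dppa2 and Dppa4, neighbours that encode nuclear proteins of early embryos, read 10.56 to 11.30 and 10.26 to 10.93 on the high side. On the low side GFP+ replicate 1 kept 9.39 and 9.22 of them, whereas GFP+ replicate 3 and GFP- replicate 1 read 5.82 to 6.25. Utf1, a chromatin-associated factor of pluripotent cells, had the same order, with 9.03, 9.40 and 9.34 against 8.01, 4.63 and 5.20.

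Among the regulators, the nuclear receptor gene Nr0b1 had a wide step, with 11.78, 10.89 and 12.02 against 9.76, 6.19 and 5.14. The orphan receptor gene Nr5a2 read 8.72, 8.45 and 8.83 against 7.37, 6.67 and 6.15. Tcl1, a coactivator of the kinase Akt, read 10.93, 9.02 and 10.91 against 7.73, 5.84 and 5.70. For these 3 genes, too, GFP+ replicate 1 was the highest array of the low side. Esrrb, another nuclear receptor gene, fell short of a 2-fold separation, with 7.49, 6.80 and 7.19 against 5.40, 5.86 and 4.94 and a gap of 0.93. Dppa5a read 5.81, 5.87 and 6.42 against 5.68, 5.52 and 5.46, a gap of 0.13. Its probe set also differed little between the end states, with iPS cells at 6.10 ± 0.16 and leukemia at 5.70 ± 0.11. The 2 list members that overlapped were Tfcp2l1, where the low side reached 9.78 and the high side began at 9.49, and Prdm14, where the low side reached 6.47 and the high side began at 6.45.

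Of the surface and signalling genes of the list, Fgf4, the growth factor of the early epiblast, read 10.16, 10.19 and 10.68 against 8.94, 8.71 and 7.30. Pecam1, an adhesion molecule of endothelium, blood cells and embryonic stem cells, read 8.78, 8.98 and 9.50 against 5.48 to 7.35. It was the 1 list member lower in iPS cells than in leukemia, by a log2 difference of -1.04 ± 0.07 (limma, adjusted p = 4.67e-06), so its low-side levels were below both end states.

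The 4 factors of the transgene did not move as a group. Sox2 was separated, with 10.21, 10.07 and 10.69 against 8.46, 6.76 and 4.83, and leukemia read 4.69 ± 0.49. Pou5f1, which encodes Oct4, read 7.45, 7.59 and 7.32 against 7.14, 7.06 and 6.99, a gap of 0.19. For Pou5f1 iPS cells read 8.11 ± 0.03 and leukemia 6.54 ± 0.19. Klf4 overlapped, since the low side spanned 7.64 to 9.43 and GFP- replicates 2 and 3 read 7.64 and 8.37, and so did Myc, with 8.47, 8.88 and 7.91 against 8.68, 9.49 and 8.88. Whether these probe sets also read transcripts of the transgene was not examined.

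The promoters of Nanog, Zfp42 and Sox2, genes with high-side levels above all low-side levels, are shown because each holds the octamer-like heptamer TTTGCAT, a sequence that Oct4 is known to bind. They are the 250 bases before the RefSeq start (GRCm38.p6), written 5′ to 3′ on the strand of the gene, with the heptamer in capitals on whichever strand it was found. Nanog lies at chr6:122707239-122707488 on the plus strand, Zfp42 at chr8:43307010-43307259 on the minus strand and Sox2 at chr3:34649745-34649994 on the plus strand.
Nanog: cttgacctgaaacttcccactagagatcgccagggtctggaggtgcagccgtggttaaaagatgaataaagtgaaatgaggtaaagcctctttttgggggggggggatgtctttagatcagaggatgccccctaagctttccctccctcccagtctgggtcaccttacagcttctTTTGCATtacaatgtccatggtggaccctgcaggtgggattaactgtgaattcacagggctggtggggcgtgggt
Zfp42: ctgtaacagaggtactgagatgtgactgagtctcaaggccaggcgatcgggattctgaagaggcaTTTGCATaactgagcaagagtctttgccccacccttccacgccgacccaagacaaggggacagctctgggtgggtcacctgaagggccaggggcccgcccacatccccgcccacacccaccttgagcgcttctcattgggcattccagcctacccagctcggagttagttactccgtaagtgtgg
Sox2: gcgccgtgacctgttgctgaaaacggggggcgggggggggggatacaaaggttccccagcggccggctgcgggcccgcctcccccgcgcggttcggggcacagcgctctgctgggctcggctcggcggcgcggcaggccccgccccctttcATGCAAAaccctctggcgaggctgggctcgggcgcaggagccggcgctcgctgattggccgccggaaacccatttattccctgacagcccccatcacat
In the Nanog promoter the heptamer begins 75 bases before the start and is followed by TACAA. The heptamer followed by any base and ACAA is a longer form known as a joint motif of Oct4 and Sox2. In the Zfp42 promoter it begins 185 bases before the start, and in the Sox2 promoter its complement lies 99 to 93 bases before the start. In windows of 300 bases (250 before to 50 after the start), searched on both strands, TTTGCAT occurred in 12 of the 105 matched promoters of genes separated with the high side above (11.4%), in 2 of 65 with the low side above (3.08%), and in 721 of the 16990 promoters matched by symbol (4.24%). The 12 genes were Sox2, Zfp42, Wnk3, Zfp345, Gm14124, Gm13212, Tspan13, Gm20939, Chchd10, Gm14393, Stox2 and Pipox. The longer form, whose matches all contain the heptamer, occurred in 6 of all promoters, Nanog and Pipox among them. TGANTCA, the core recognised by AP-1 factors, occurred in 4.76%, 6.15% and 7.39% of the same 3 sets, and GGAATG, recognised by TEAD factors, in 9.52%, 16.9% and 13.5%. These counts describe letters in a window and no binding.

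Outside the pluripotency list the widest gaps with the high side above were of mixed function. Rragb, a small GTPase that signals amino acid supply to mTORC1, read 6.41, 6.79 and 6.79 against 4.28, 4.19 and 3.71. The high-side arrays lay above both end states (iPS 5.32 ± 0.16, leukemia 5.08 ± 0.19) and the low-side arrays below them, and Rragb was not called between iPS cells and leukemia (difference 0.24 ± 0.12, limma, adjusted p = 0.133). Slc38a4, an amino acid transporter, read 9.61, 9.71 and 10.12 against 7.80, 5.85 and 6.61. Wnk3, a kinase that regulates ion transport, read 8.27, 8.22 and 8.77 against 6.60, 4.74 and 4.92. Tet1, a dioxygenase that oxidises methylcytosine, read 10.66, 10.63 and 10.96 against 9.14, 7.30 and 5.83, close to iPS cells at 10.87 ± 0.05. The olfactory receptor gene Olfr1170 read 7.01, 6.78 and 7.45 against 3.68, 5.28 and 3.33, although it was at 3.88 ± 0.19 in iPS cells and 3.55 ± 0.18 in leukemia. Pecr, a peroxisomal reductase of fatty acid metabolism, Tubb3, a neuronal tubulin, and Ap1m2, an adaptor subunit of polarised epithelia, had gaps of 1.49, 1.49 and 1.48.

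Several zinc finger genes formed a run. Zfp992, Gm21082, Rex2, Zfp979 and Zfp534, separated with the high side above, lie within a stretch of 11 measured genes in RefSeq order. Zfp979 read 10.03, 10.18 and 10.31 against 8.48, 5.27 and 3.94, Rex2 10.83, 11.08 and 10.81 against 9.75, 5.55 and 4.61, and Zfp992 11.36, 11.42 and 11.80 against 9.67, 8.18 and 5.78. In all 3 the high side lay near or above the iPS level (10.08 ± 0.06, 9.61 ± 0.11 and 11.39 ± 0.06) and GFP+ replicate 1 was the low-side array closest to it. The probe sets of Zfp979 differed. The one used had a middle difference of 4.91 and a gap of 1.55, and the others had middle differences of 1.51 and 0.17 and gaps of 1.43 and 0.009. Of the 336 measured genes named Zfp, 9 (2.68%) were separated by at least 2-fold with the high side above and 0 with the low side above. Over all genes these shares were 0.618% and 0.401%. The Zfp genes not overlapping numbered 117 (34.8%) and 23 (6.85%), against 17.3% and 15.9% of all genes, and their list median difference was 0.22.

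**Figure D2:**
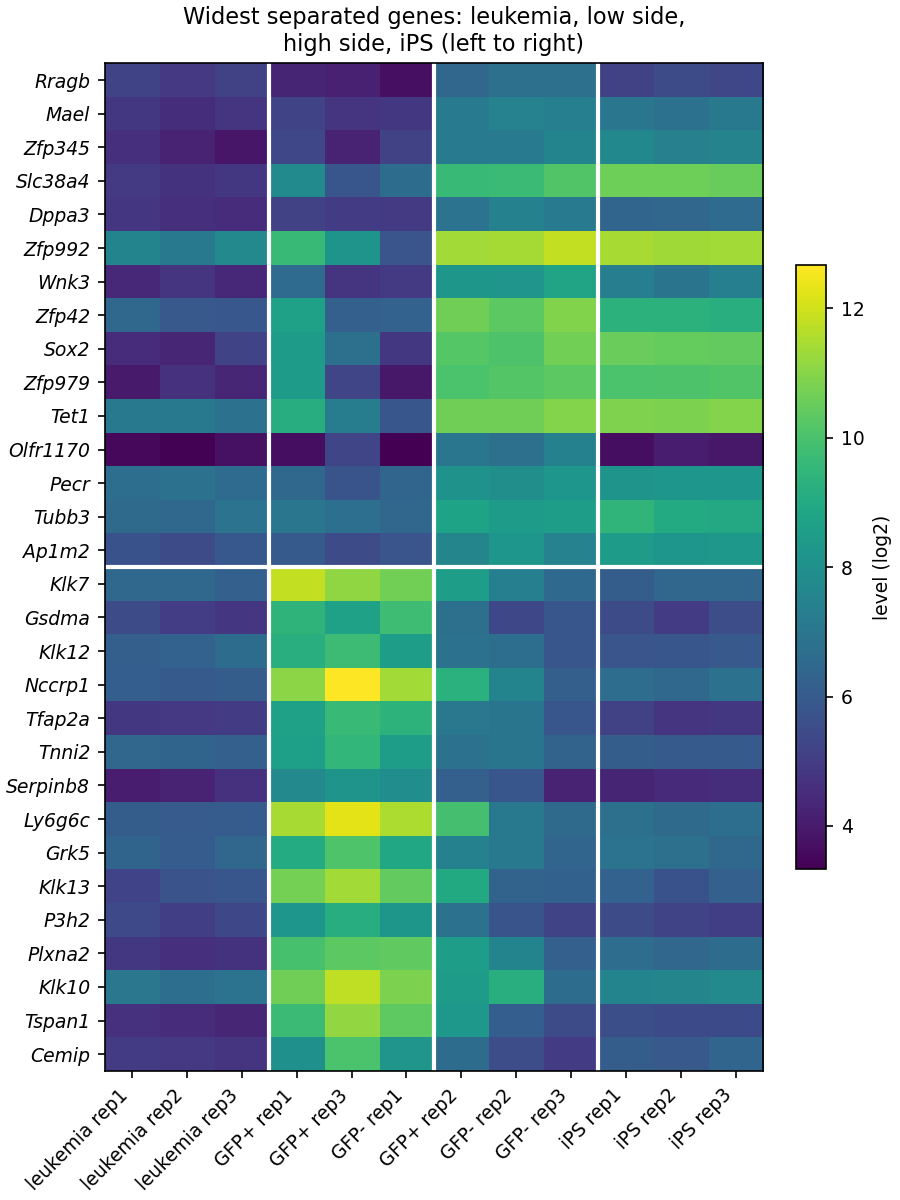
Log2 level (colour) of the 15 genes with the widest gap in each direction, on the 12 arrays ordered as leukemia, low side, high side and iPS. The upper 15 genes are above on the high side and the lower 15 on the low side; Rragb, Mael, Dppa3, Wnk3, Zfp42 and Olfr1170 are above every iPS and leukemia array on the high side, and 14 of the lower 15, all but Gsdma, are lowest among the colonies in GFP- replicate 3.

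Germline genes followed the same side. Mael, which encodes maelstrom, a protein of transposon silencing in germ cells, read 7.22, 7.47 and 7.36 against 5.26, 4.74 and 4.84. The germ cell RNA-binding gene Dazl read 7.81, 7.67 and 8.78 against 6.34, 5.78 and 5.79, and the meiotic cohesin gene Stag3 7.85, 7.39 and 8.10 against 6.38, 6.02 and 5.52. Of the 17 measured germline genes these 3 (17.6%) were separated by at least 2-fold, 11 (64.7%) did not overlap with the high side above and 0 with the low side above. Over all genes 0.618% were separated and 17.3% did not overlap with the high side above. The median difference was 0.28. After cyclic loess Stag3 had a gap of 0.98 and 2 of the 3 remained separated.

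Regulators of DNA methylation and Polycomb genes were also mostly above on the high side. Of 22 measured, Tet1 and Cbx7, a reader of trimethylated histone H3, were separated by at least 2-fold (9.09%, against 0.618% of all genes). In all, 15 (68.2%) did not overlap with the high side above and 2, Tet3 and Ring1 (9.09%), with the low side above, against 17.3% and 15.9% of all genes. Cbx7 read 9.17, 9.16 and 9.53 against 8.12, 7.10 and 6.56. Dnmt3l, a cofactor of the de novo methyltransferases, read 8.06, 8.48 and 8.80 against 7.37, 5.61 and 5.82. The methyltransferase gene Dnmt3b overlapped, with 9.63, 10.38 and 10.25 against 9.78, 6.29 and 7.36, because GFP+ replicate 1 was within the high side. Tet3 ran the other way, with 7.99, 7.26 and 7.03 against 8.41, 8.77 and 8.31. The median difference of the list was 0.89, and 0.66 after cyclic loess, where Cbx7 had a gap of 0.96.

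Genes of cell division were also above on the high side, by smaller steps. Of 19 measured, 18 (94.7%, against 17.3% of all genes) did not overlap with the high side above, 0 with the low side above and 0 were separated by at least 2-fold. After cyclic loess 16 did not overlap. The list mean was 10.10, 10.22 and 10.26 on the high side, 9.58, 9.36 and 8.94 on the low side and 10.31 to 10.34 in both end states. Mcm3, a subunit of the replicative helicase, read 10.57, 10.55 and 10.53 against 9.82, 8.97 and 8.45, and Bub1, a mitotic checkpoint kinase, 9.05, 8.86 and 9.61 against 7.96, 7.49 and 7.51. The exception was Mki67, a proliferation marker, with 10.19, 10.35 and 10.51 against 9.95, 10.46 and 9.77.

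Genes of the primed epiblast, the later postimplantation state, gave a weaker step. Of 14 measured, 6 (42.9%) did not overlap with the high side above and 0 with the low side above, against 17.3% and 15.9% of all genes. Of the list 0 were separated by at least 2-fold, and its median difference was 1.16. Otx2, a homeobox gene of the epiblast, read 9.54, 9.38 and 10.34 against 8.78, 8.64 and 6.39. Tdgf1, the Nodal coreceptor Cripto, was high in every colony, with 11.85, 11.82 and 12.03 against 10.67, 11.80 and 9.75, and leukemia at 5.10 ± 0.29. iPS cells read 12.29 ± 0.06, so the low-side GFP+ replicate 3 was close to them in Tdgf1, while in Zfp42 the same array was at the leukemia level (6.08 ± 0.30). Of 8 genes of the 2-cell-like state 3 (37.5%) did not overlap with the high side above. Of 18 imprinted genes 6 (33.3%) did not, with 2 (11.1%) on the low side. Their medians, 0.17 and 0.24, moved with single arrays. The first was 0.084 without GFP- replicate 3, 0.090 without GFP- replicate 1, 0.36 without GFP- replicate 2 and 0.38 without GFP+ replicate 2. The second was 0.64 and 0.52 without GFP+ replicates 1 and 2, and 0.42 and 0.49 without GFP- replicates 2 and 3.

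The genes above on the low side were led by kallikreins, secreted serine proteases that in epidermis cleave the adhesions between shedding cells, and other genes of stratified epithelium. Of the 13 measured kallikreins 5 (Klk7, Klk10, Klk11, Klk12 and Klk13) were separated by at least 2-fold with the low side above, 9 (69.2%) did not overlap and 0 lay above on the high side, with a median difference of -1.98. Over all genes 0.401% were separated and 15.9% did not overlap with the low side above. The 5 kallikreins lie in a stretch of 7 measured genes in RefSeq order. Klk7 read 11.81, 11.12 and 10.67 on the low side and 8.51, 7.37 and 6.54 on the high side, and Klk12 9.19, 9.75 and 8.57 against 6.80, 6.72 and 5.82. GFP- replicate 3 was at the end-state level of both genes, with iPS cells at 6.30 ± 0.17 and 5.86 ± 0.09. Klk1 did not share this order: it read 8.55, 13.06 and 3.72 on the low side and 8.85, 9.12 and 7.40 on the high side, the widest range of any gene within a side under the naming rule.

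**Figure D3:**
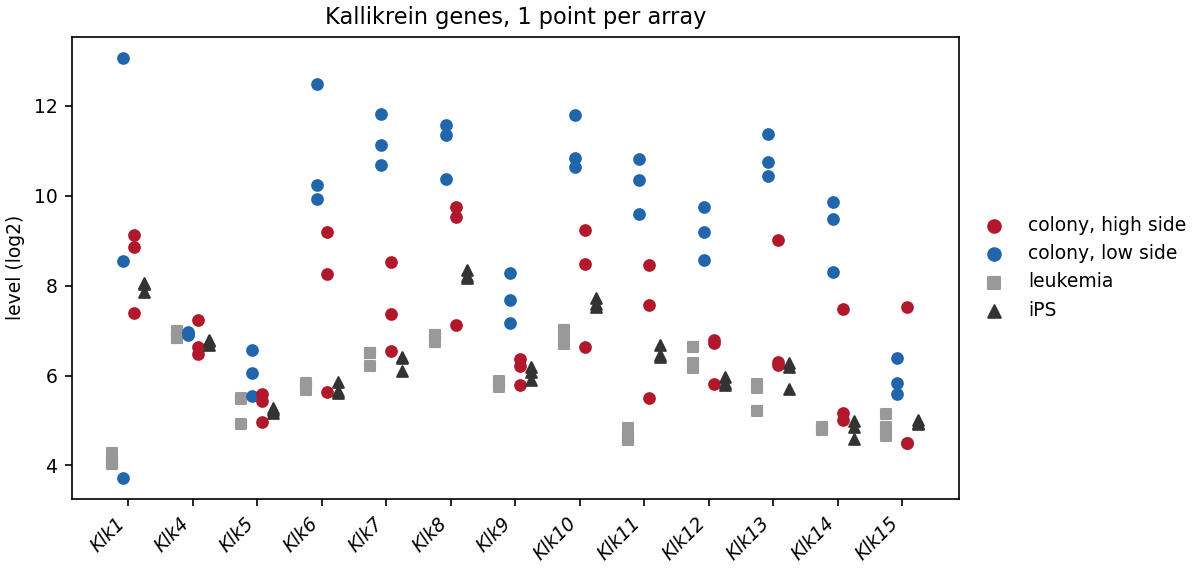
Log2 level (vertical axis) of the 13 measured kallikrein genes, 1 point per array; blue circles are low-side colonies, red circles high-side colonies, grey squares leukemia and dark triangles iPS cells. Klk7, Klk10, Klk11, Klk12 and Klk13 show all blue points at least 1 log2 unit above all red points, and Klk1 spans 3.72 to 13.06 within the low side.

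Among the other genes with wide gaps on the low side, Gsdma, a gasdermin, a pore-forming protein of skin, read 9.40, 8.69 and 9.78 on the low side and 6.77, 5.36 and 5.83 on the high side. Tfap2a, a transcription factor of epidermis and trophectoderm, read 8.66, 9.65 and 9.38 against 7.06, 6.94 and 5.82, with both end states near 4.90. Nccrp1 read 11.05, 12.67 and 11.39 against 9.29, 7.55 and 6.14. Ly6g6c, of the Ly6 family of surface proteins, read 11.46, 12.30 and 11.54 against 9.94, 7.11 and 6.55. In each of Gsdma, Tfap2a, Nccrp1 and Ly6g6c, GFP+ replicate 2 was the high-side array closest to the low side. The tetraspanin gene Tspan1, the semaphorin receptor gene Plxna2 and Cemip, a gene of hyaluronan breakdown, had gaps of 1.40, 1.41 and 1.38. Genes known mainly from other settings stood beside them: Tnni2, a troponin of fast skeletal muscle, had a gap of 1.57, Grk5, a kinase of G protein-coupled receptors, 1.51, P3h2, a collagen prolyl hydroxylase, 1.43, and Serpinb8, an intracellular protease inhibitor, 1.55. Tnni2, for example, read 8.59, 9.51 and 8.52 against 6.85, 6.95 and 6.30.

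Over all genes 15.9% did not overlap with the low side above and 17.3% with the high side above. The keratin and epidermal differentiation list gave 17 of 29 measured genes (58.6%) that did not overlap with the low side above, 0 with the high side above, and 1 separated by at least 2-fold, Calml3, a calmodulin-like protein of epithelium. Its median difference was -1.28, and -0.61 within the GFP+ label and -1.66 within the GFP- label. It was -1.95 without GFP+ replicate 1 and -1.96 without GFP- replicate 1. Calml3 read 8.12, 8.06 and 7.10 against 6.04, 4.93 and 4.93, and its gap of 1.05 was 0.98 after cyclic loess. Krt14, the keratin of basal epidermal cells, overlapped, with 12.07, 12.93 and 12.84 on the low side and 12.36, 9.52 and 5.54 on the high side. Krt6a, a keratin of wounded and hyperproliferative skin, read 11.79, 12.92 and 11.91 against 11.63, 5.22 and 4.09. Over the list, the mean of GFP+ replicate 2 was 7.57, below the low-side means of 8.08, 8.58 and 8.01. In Krt14 and Krt6a the high side was split, with GFP+ replicate 2 within or just below the range of the low side. GFP- replicate 3 was far below it, for Krt6a at the level of iPS cells (4.12 ± 0.25).

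This split held for most genes with the widest range within the high side. By the naming rule these were Krt6a, Krt14, Krt16, Pf4, Fabp7, Dsg3, Olr1, Mall, Mboat1 and Sprr1a. In 9 of the 10, all but Pf4, GFP+ replicate 2 was the highest of the 3. Sprr1a, a protein of the cornified envelope, read 9.97, 8.28 and 5.34, and Fabp7, a fatty acid carrier, 10.30, 5.39 and 5.41.

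Squamous regulators and desmosome genes, cell contacts of stratified epithelium, did not overlap with the low side above in 13 of 22 genes (59.1%), against 15.9% of all genes. Pkp3, a plakophilin of the desmosome, read 8.44, 8.70 and 8.56 against 7.30, 7.30 and 6.47, and Fgfbp1, a carrier of fibroblast growth factors, 11.37, 12.28 and 11.29 against 9.94, 9.99 and 10.08. Trp63, the master regulator of stratified epithelium, overlapped, with 6.04, 5.50 and 6.09 against 6.01, 5.02 and 5.15 and iPS cells at 5.03 ± 0.11. Genes of simple epithelium did not overlap in 13 of 21 (61.9%), with Cldn7, a claudin of tight junctions, at 8.70, 8.97 and 8.93 against 7.54, 7.27 and 6.27. Cdh1, E-cadherin, was high on all 6 arrays, with 12.62, 12.48 and 12.73 against 12.20, 11.91 and 11.21, and Epcam overlapped, with 9.35, 9.65 and 9.90 against 9.30, 9.37 and 9.06. The median differences of these lists were -1.25 and -0.86.

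Fibroblast and mesenchymal genes were mixed, with 12 of 26 (46.2%) not overlapping with the low side above and 3 (Fn1, Twist1 and Cdh2, 11.5%) with the high side above, and a median of -0.30. Over all genes these shares were 15.9% and 17.3%. Col1a1, the main collagen of connective tissue, read 7.77, 7.84 and 7.54 on the low side and 6.64, 6.59 and 6.92 on the high side, all below iPS cells at 8.60 ± 0.21. Periostin, Postn, read 6.59, 7.14 and 6.41 against 5.08, 5.16 and 4.25, with iPS cells at 6.60 ± 0.06. Of 13 trophoblast genes 3 (23.1%) did not overlap with the low side above. Their list median of -0.25 was -0.051 and -0.056 without GFP+ replicates 1 and 2, and -0.16 and -0.052 without GFP- replicates 1 and 3. Elf5, a factor of trophoblast and gland epithelium, read 7.26, 8.25 and 7.87 against 6.10, 4.84 and 4.65. Of 16 primitive endoderm genes 0 did not overlap. Of 14 early germ layer genes 2 (14.3%) did not, with the low side above, near the share of all genes.

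**Figure D4:**
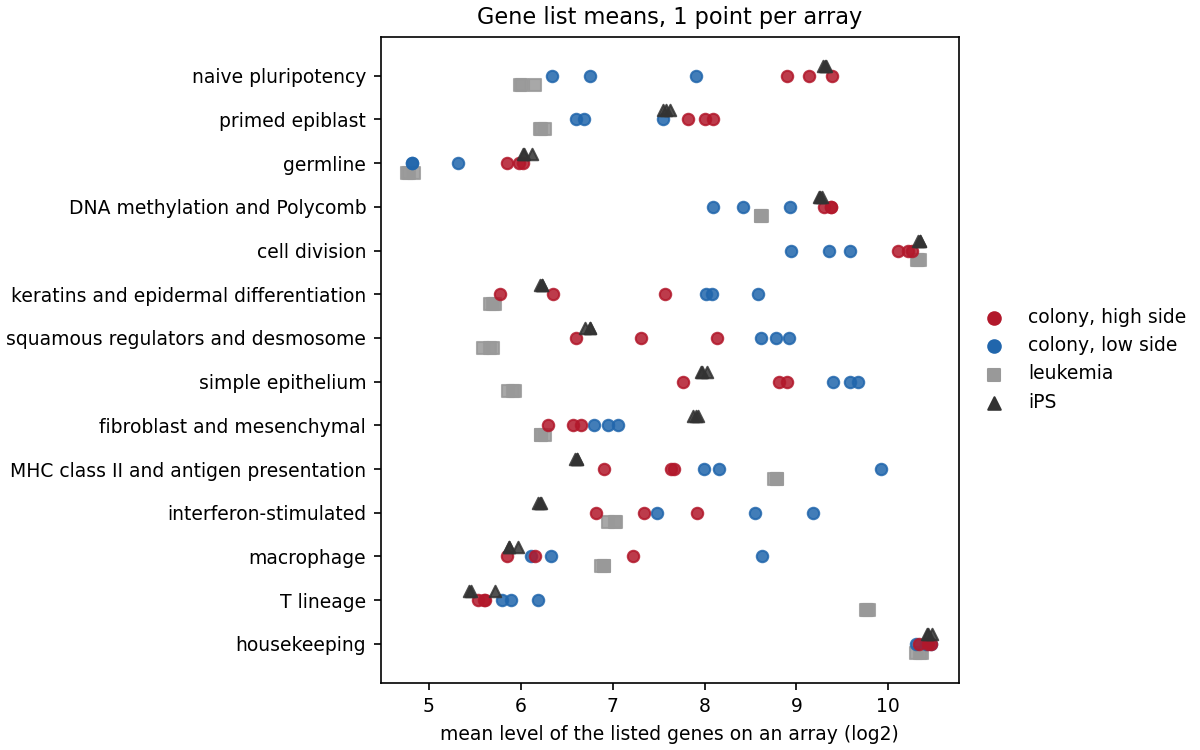
Mean log2 level (horizontal axis) of the genes of 14 lists on each array, with red circles for high-side colonies, blue circles for low-side colonies, grey squares for leukemia and dark triangles for iPS cells. The naive pluripotency means run from 6.34 to 7.91 on the low side and 8.90 to 9.39 on the high side; the keratin means run the other way, with 7.57 for the high-side array nearest the low side; the macrophage means reach 8.62 on a low-side array.

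Blood cell genes were examined as markers of cells that a colony from leukemia could still hold. T lineage genes averaged 5.53 to 5.61 on the high side, 5.80 to 6.19 on the low side, 5.44 to 5.72 in iPS cells and 9.76 to 9.79 in leukemia. Of 22 measured, 7 (31.8%) did not overlap with the low side above and 1 (4.55%) with the high side above, against 15.9% and 17.3% of all genes. Cd3e, a chain of the T cell receptor complex, read 8.50, 9.57 and 9.83 on the low side and 8.26, 6.13 and 6.04 on the high side, below leukemia at 11.87 ± 0.05. Ptprc, the leukocyte antigen CD45, read 8.40, 10.75 and 8.37 against 8.83, 6.43 and 5.26, so it overlapped. Pan-haematopoietic genes did not overlap in 6 of 26 (23.1%) with the low side above and 1 (3.85%) with the high side above. Notch1, the receptor gene of the leukemia model, overlapped, with 8.78, 9.07 and 8.67 against 8.98, 8.64 and 8.68 and leukemia at 11.32 ± 0.01. Notch pathway genes did not overlap in 2 of 18 (11.1%) on each side, below both shares of all genes.

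Macrophage genes followed single arrays and not the side. Their mean was 8.62 in GFP+ replicate 3 and 7.22 in GFP- replicate 2, and 5.85 to 6.33 in the other colonies, with leukemia at 6.87 to 6.91 and iPS cells at 5.87 to 5.97. None of the 20 measured was without overlap (0 on each side). Tyrobp, an adaptor of myeloid receptors, read 10.28 in GFP+ replicate 3 and 7.47 in GFP- replicate 2, and 5.58 to 5.78 in the other colonies. Their part in the differences between the sides was not tested. Granulocyte genes did not overlap in 3 of 16 (18.8%) and B cell genes in 1 of 11 (9.09%), with the low side above in each. Over all genes this share was 15.9%, so granulocyte genes lay near it and B cell genes below it. Of 6 erythroid genes 0 did not overlap.

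Genes of antigen presentation differed among themselves. H2-Ab1, a class II chain, read 7.28, 12.58 and 6.90 on the low side and 7.07, 9.96 and 7.09 on the high side, the 2 highest arrays being those with the highest macrophage means. Class I genes had the low side above: B2m, the invariant light chain, read 11.92, 12.85 and 11.92 against 11.51, 10.67 and 8.44, H2-K1, a heavy chain, 9.96, 11.05 and 10.40 against 9.37, 8.43 and 7.58, and Psmb8, an immunoproteasome subunit, 8.97, 9.84 and 9.40 against 8.46, 7.14 and 6.29. Of the 14 measured genes of both classes 9 (64.3%) did not overlap with the low side above and 0 with the high side above, against 15.9% and 17.3% of all genes. Their list median was -1.17, which was -1.93 without GFP+ replicate 1 and -1.77 without GFP- replicate 1. Interferon-stimulated genes overlapped in 18 of 21, with 2 (9.52%) above on the low side and 1 (4.76%) on the high side, but had a median of -1.54. The median was -0.81 without GFP+ replicate 3, and -0.52 within the GFP+ label and -1.60 within the GFP- label. Their mean was 9.19 in GFP+ replicate 3, 8.55 in GFP- replicate 1 and 7.48 in GFP+ replicate 1, against 7.91, 6.82 and 7.35 on the high side.

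Genes of cell cycle arrest and the p53 response did not overlap in 4 of 15 (26.7%) with the high side above and 1 (6.67%), Cdkn1a, with the low side above. Over all genes these shares were 17.3% and 15.9%. Housekeeping genes had a median of 0.04, which was -0.16 after cyclic loess, with 3 of 15 (20%) not overlapping with the high side above and 4 (26.7%) with the low side above.

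Set against the end states, the 2 directions differed in kind. Of the 137 genes above on the high side, 117 were higher in iPS cells than in leukemia by limma, 8 were lower and 12 were not called. Over all genes 24.5% were higher and 22.9% lower. With all 12 arrays in the fit 71 of the 137 were higher. The median difference of the 137 between iPS cells and leukemia was 2.19, and that between the sides 2.06. Of the 89 genes above on the low side, 30 were higher in iPS cells, 30 were lower and 29 were not called, with a median of 0.02. In 80 of the 89 all 3 low-side arrays lay above every iPS and leukemia array, whereas the same was so of the high side in 28 of the 137. The share of all genes for this count was not taken. Read from the end states, 42 of the 279 genes at least 8-fold higher in iPS cells were separated with the high side above and 4 with the low side above, and of the 204 genes at least 8-fold lower in iPS cells 0 and 4 were. Over all genes these shares were 0.618% and 0.401%.

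**Figure D5:**
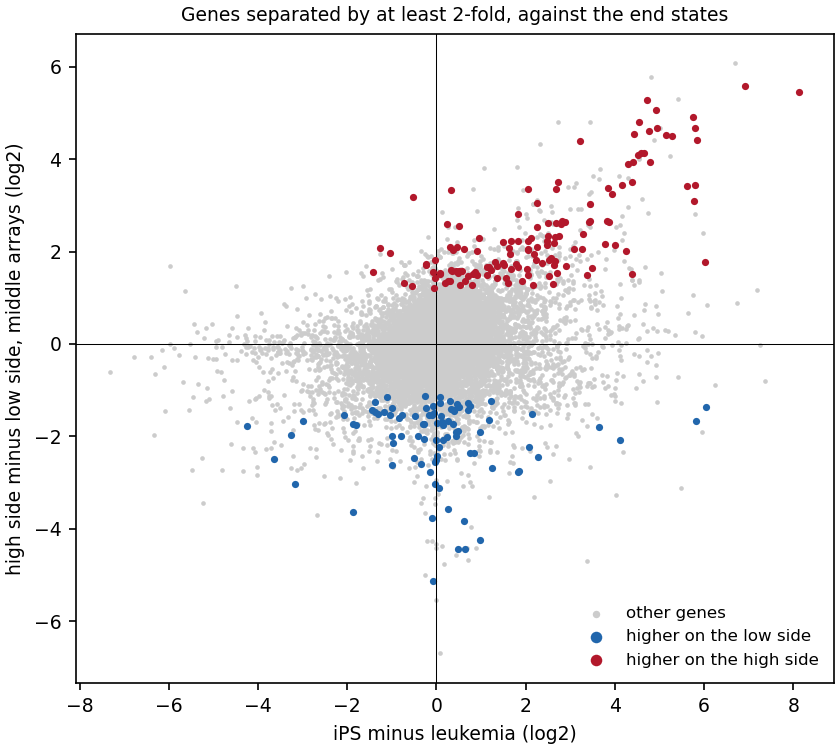
Difference between the middle arrays of the sides (log2, vertical axis) against iPS minus leukemia (log2, horizontal axis) for 22179 genes; red points are the 137 genes separated with the high side above, blue points the 89 with the low side above, grey points all others. The red points lie mainly to the right, with a median of 2.19 on the horizontal axis, and the blue points around 0, with a median of 0.02.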

How the data were processed

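RNA was measured on 12 Affymetrix arrays, 3 in each of 4 groups. The values are on a log2 scale as the authors deposited them, from RMA per the submitters' processing notes; its version is not given in the sources used here. Array medians were 5.76 to 5.82, and precision is limited by how few arrays there are. No value was missing among the 41345 probe sets, and 0 arrays were copies of another. The platform annotation gave 23521 probe sets 1 symbol, 1814 several and 16010 none. The probe set with the highest mean stood for each of 22180 genes.

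The sides were described without a test. iPS cells were compared with leukemia, and GFP- with GFP+ colonies, in separate limma fits (limma 3.58.1, R 4.3.3), each with Benjamini-Hochberg adjustment over all genes and a threshold of 0.05. In data simulated for iPS cells against leukemia (22180 genes, 200 changed), the fit recovered 88% of the changes of 1 and 98% of those of 2 on the log2 scale, and for the colony labels 22% and 65%. The same simulations gave 7.92% and 9.38% false calls. They drew each gene on each array independently and so held no variation shared between genes. Whether the replicate numbers of the titles pair the arrays cannot be told from these values, and the main fits used no pairing. Same-numbered colonies correlated in their deviations from the group means at 0.168, 0.322 and -0.377. In the other groups these correlations were -0.0259 to -0.0184. Across genes, the GFP+ and GFP- colonies numbered 1 correlated at 0.976, those numbered 2 at 0.981 and those numbered 3 at 0.879.

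The text names the 15 widest gaps in each direction and the 10 widest ranges within each side, without clone, predicted, locus, microRNA and small nucleolar names, then up to 2 members of each list with a gap of at least 1, and fixed genes. Other names are list members or were chosen after their values were seen. The sides and the 26 lists (445 of 491 symbols measured) were chosen with earlier results of these data known. Alternatives were cyclic loess, another choice of probe set, a minimum level of 6, other gaps, other fits and leaving out each array. Promoter and microRNA sequences came from RefSeq (GRCm38.p6).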

Additional observations from a re-analysis of the deposited data

How the results depend on the processing

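Of the values recomputed under other settings, 300 values that answer a comparison and 349 of single genes were counted as keeping their direction and their side of the threshold or their size. Of the former kind 16 were counted as moved and 4 as changed in sign, and of the latter 2 no longer passed. The median of the 4 transgene factors, 0.35 with all arrays, was -0.012 without GFP- replicate 1, although it was counted among the 300. With a gap above 0 the genes separated numbered 3829 (high side above) and 3537 (low side above), and with a gap of at least 2, 5 and 1. Leaving out 1 array gave 147 to 548 and 91 to 464, which follows from a gap over fewer arrays. After cyclic loess 115 genes (114 of them among the 137) and 106 genes (84 among the 89) were separated, and of the list members separated by the deposited values Dppa4, Utf1, Mybl2, Stag3, Calml3 and Cbx7 were no longer so, with gaps of 0.92 to 0.99. The germline median was 2.27 over genes reaching 6, a filter that keeps some members only through the side where they are high. Small list medians changed sign or size: B cell 0.029 with the most variable probe set and -0.12 to 0.040 without 1 array, housekeeping -0.16 with cyclic loess and -0.070 to 0.099 without 1 array, and early germ layer -0.11 to 0.0074 without 1 array; the cause was not tested. The fit of all 12 arrays called 2759 genes higher and 2636 lower in iPS cells; its error takes in the wider spread of the colonies. The replicate block gave 5213 higher, 4810 lower and, between the labels, 0; the pairing changed no other call. Between the labels 1 gene, Krt17, was lower once GFP- replicate 1, the GFP- array high in Krt17, was left out. Array weights gave 0 calls, with 4134 of 22180 genes at an unadjusted p under 0.05. The position of GFP- replicate 1 was 0.80 over genes called by at least 8-fold. No detection values were used, so signal over background was not measured.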

Other observations

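The locus with the widest gap of all was that of the microRNA Mir363, named after its values were seen. It read 6.55, 6.48 and 9.44 on the high side (GFP+ replicate 2, GFP- replicates 2 and 3) and 3.70, 3.36 and 3.32 on the low side (GFP+ replicates 1 and 3, GFP- replicate 1), a gap of 2.78. The low-side arrays lay below both end states, with iPS cells at 5.20 to 5.80 and leukemia at 5.97 to 6.16. The array reads RNA at the locus and not the mature microRNA, whose seed (bases 2 to 8, in capitals) is shown because seeds define microRNA families.
mmu-miR-363-3p: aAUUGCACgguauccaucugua
Gpc3, a glypican gene in the same stretch of 4 measured genes on the X chromosome, read 8.64, 7.71 and 9.42 against 6.27, 4.97 and 5.29. The microRNA loci with probe set numbers next to that of Mir363 did not share its step. Mir18b and Mir92-2 had gaps of 0.31 and 0.31, with their highest levels in GFP- replicate 3 (6.36 and 6.44), and Mir19b-2 and Mir20b overlapped. Of 483 microRNA loci measured, 5 (1.04%) were separated by at least 2-fold with the high side above and 2 (0.414%) with the low side above, near the shares of all genes (0.618% and 0.401%). With any gap above 0 they numbered 48 (9.94%) and 53 (11.0%), below the shares of all genes (17.3% and 15.9%).

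X-linked genes, a set chosen after the values were seen, were more often above on the high side than autosomal genes, and no test was made. Of 686 genes placed on the X chromosome by RefSeq, 15 (2.19%) were separated by at least 2-fold with the high side above, against 90 of 16290 autosomal genes (0.552%) and at most 1.02% on any autosome examined; 1 autosome was not analysed here. With any gap above 0 the share was 30.9%, against 13.8% to 19.3% by autosome. The median difference was 0.13, and 0.10 within the GFP+ label and 0.17 within the GFP- label. The 15 were 4930519F16Rik, Armcx2, Bex2, Bex4, Chic1, Dkc1, Fancb, Fgd1, Gpc3, Klhl13, Nr0b1, Rragb, Timm8a1, Tmem47 and Wnk3. Bex4, for example, read 9.75, 9.43 and 10.60 against 8.16, 4.82 and 5.24. Xist, the RNA that coats an inactive X chromosome, overlapped between the sides, with 7.24, 9.48 and 6.39 on the high side, 7.84, 11.00 and 7.84 on the low side, 7.64 ± 0.15 in iPS cells and 11.54 ± 0.08 in leukemia. GFP+ replicate 3 and GFP- replicate 2 were thus the 2 highest colonies both for Xist and for the mean of the macrophage genes (8.62 and 7.22), and the part of those cells in the Xist level was not tested. The placement covered 16976 genes and left 5203 without a position.

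Small nucleolar RNAs, which guide modification of ribosomal RNA, had a median difference of 0.84 over 74 loci. Of these 39 (52.7%) did not overlap with the high side above and 1 (1.35%) with the low side above, against 17.3% and 15.9% of all genes. With the high side above 5 (6.76%) were separated by at least 2-fold, against 0.618% of all genes. Prolactin family genes of placenta were high on some colonies only, the high-side GFP+ replicate 2 among them for Prl3d3. Prl3d3 read 11.11, 5.84 and 12.44 on the low side and 9.05, 5.57 and 4.83 on the high side. Prl8a9 reached 8.98 in GFP- replicate 1 with 3.58 to 5.44 in the other colonies. On the low side GFP+ replicate 3 also stood apart in the myeloid genes Lilrb4a (11.16, against 5.03 and 4.81 in GFP+ replicate 1 and GFP- replicate 1) and Mmp12 (11.17, against 7.12 and 6.04) and in the class II gene H2-Aa (11.12, against 5.99 and 5.80). Zfp981 was high in GFP+ replicate 1 (10.82) and not in GFP+ replicate 3 and GFP- replicate 1 (5.43 and 5.65), with 11.50 to 11.95 on the high side. Aspa, an enzyme that cleaves N-acetylaspartate, reached 11.38 in GFP+ replicate 3 alone, with 5.22 to 6.18 in the other colonies. Of the 16010 probe sets without a gene here, 94 (0.587%) were separated by at least 2-fold with the high side above and 9 (0.0562%) with the low side above.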
